A study of Mus musculus with 12 samples.

Results

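The lysosome and autophagy genes described here are 37 genes chosen by function: the membrane proteins, cofactors, proteases, glycosidases and acid lipase of the lysosome, 4 genes of its proton pump, the transcription factor Tfeb, and 6 genes of autophagy. Each was matched to the probe sets that carry its symbol alone, and the brightest probe set over all arrays stood for it. All 37 were found among 18194 genes on the array, and all 37 lay above the filter on low signal that left 12792 genes to test.

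The samples were primary dendritic cells isolated from lymph nodes of C57BL/6 mice and kept in culture, and the question set by the study's title is which genes depend on p38a, the stress-activated kinase encoded by Mapk14. Cells labelled wild type (WT) and cells labelled p38a knockout (KO) received Pam3CSK4, a synthetic lipopeptide that activates Toll-like receptor 2, at a labelled dose of 1 mg/ml for 0, 2 or 4 h. Each of the 6 groups has 2 arrays, lettered A and B. The labels give neither the deleted part of Mapk14, nor how and in which cells it was deleted, nor whether A and B are different mice or cultures, so p-values measure the spread between these arrays, which may be technical. No array was made from cells cultured for 2 or 4 h without the ligand, and the effects of ligand and of time in culture cannot be told apart.

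Of 6 Mapk14 probe sets, 3 lay above the filter and none of these was called lower in KO (0 at an adjusted p under 0.05, limma), while 1 was higher, by 0.31 on the log2 scale, so the arrays do not settle the genotype label (a probe set outside the deleted part checks nothing) and KO is used here for arrays so labelled. Dendritic cell markers were abundant: 11 of 12 were matched (not Clec9a), all 11 passed the filter, and their summed signal ran from 28891 to 32115 over the 12 arrays, with the MHC class II gene H2-Aa between 12.47 and 12.96 on the log2 scale. Arrays of the same group correlated at r = 0.987 to 0.990. The deposited signals differed in scale, with 2% trimmed means from 66.6 to 119, so all arrays were set to 1 distribution (quantile normalisation), and a difference is relative to the bulk of probe sets. Levels are given as log2(signal + 16) and differences on that scale, on which changes of dim genes are understated. The median standard deviation within groups was 0.0867 for the lysosome and autophagy genes and 0.145 for all tested genes.

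Lysosomes are acid compartments in which hydrolases degrade material taken up by endocytosis or delivered by autophagy. The vacuolar proton pump acidifies them, and Tfeb and its relatives switch on many of their genes by binding a short E-box sequence. In dendritic cells the lysosomal proteases and the thiol reductase Ifi30 cut and reduce antigen and trim the invariant chain, and the cells adjust acidity and proteolysis as they mature.

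In the mean of both genotypes, 18 of 37 genes fell and 1 rose at 2 h, where 19.4% of all tested genes were lower and 11.9% higher. At 4 h 21 fell and 1 rose, against 16.7% lower and 11.8% higher among all tested genes. The median difference of the 37 genes was -0.21 at 2 h and -0.24 at 4 h, against -0.050 and -0.037 for all tested genes. Of the 23 genes lower at either time, 16 were lower at both, 2 were called lower at 2 h alone, and 5 at 4 h alone, and 13 genes were called at neither time. Both times are set against the same 0 h arrays. In bulk RNA, fewer cells of a type and less RNA per cell cannot be told apart.

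**Figure D1:**
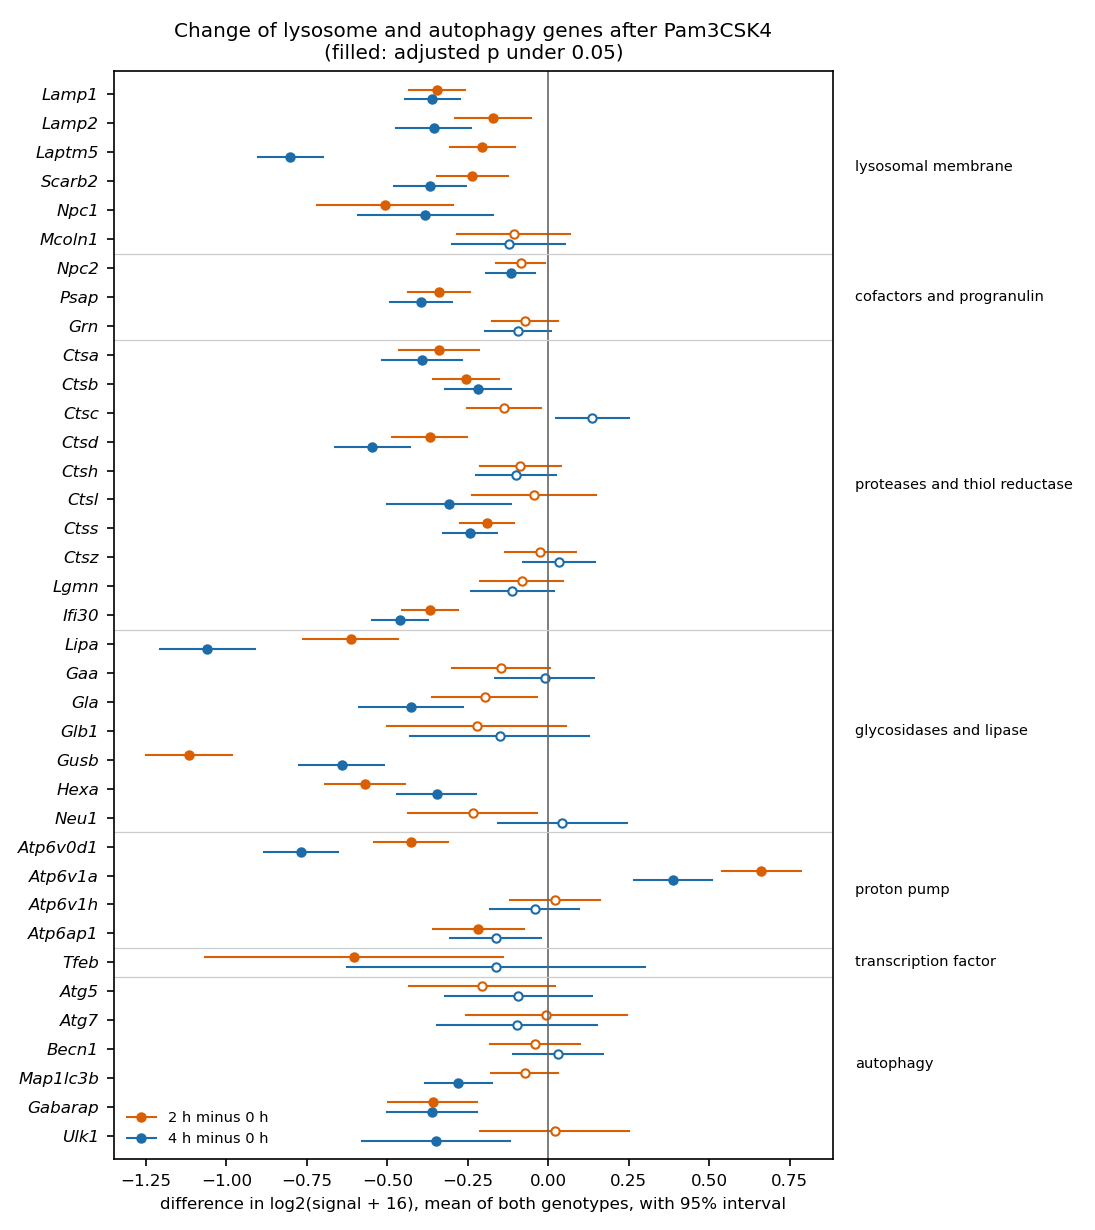
Difference from 0 h in log2(signal + 16) for each of the 37 genes, averaged over WT and KO, at 2 h (orange) and 4 h (blue). Bars are 95% intervals from the limma fit and filled points have an adjusted p under 0.05. Most points lie left of 0, with Gusb at -1.12 at 2 h and Lipa at -1.06 at 4 h, and Atp6v1a lies to the right at both times.

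The scaling of the arrays bears on these counts. With no normalisation between arrays, that is on the deposited scale, the median of all tested genes was -0.37 at 2 h and -0.17 at 4 h, and 29 and 17 of the 37 genes were lower with 0 higher, where 46.7% and 14.7% of all tested genes were lower and 2.96% and 3.43% higher. With each array scaled to its 2% trimmed mean, 14 were lower and 2 higher at 2 h, and 16 lower and 2 higher at 4 h, against 21.7% and 18.1% lower and 11.6% and 11.1% higher among all tested genes. At 2 h the called falls other than those of Gusb and Tfeb were over 1.5 times as large on the deposited scale, and the rise of Atp6v1a was smaller. Of the genes that fell, 12 of 18 at 2 h and 16 of 21 at 4 h were called lower on all 3 scales. Measured against the median of all genes on the same scale, the median of the 37 differed by -0.16, -0.11 and -0.18 at 2 h and by -0.21, -0.13 and -0.15 at 4 h with quantile, trimmed-mean and no scaling. When a gene was read as the average over its probe sets, not the brightest, the calls of Lamp2, Laptm5, Ctsa and Ctsb at 2 h and of Lamp2, Ctsa and Gla at 4 h were lost, with Ctsa at -0.20 and -0.046 (adjusted p = 0.0908 and 0.738).

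**Figure D2:**
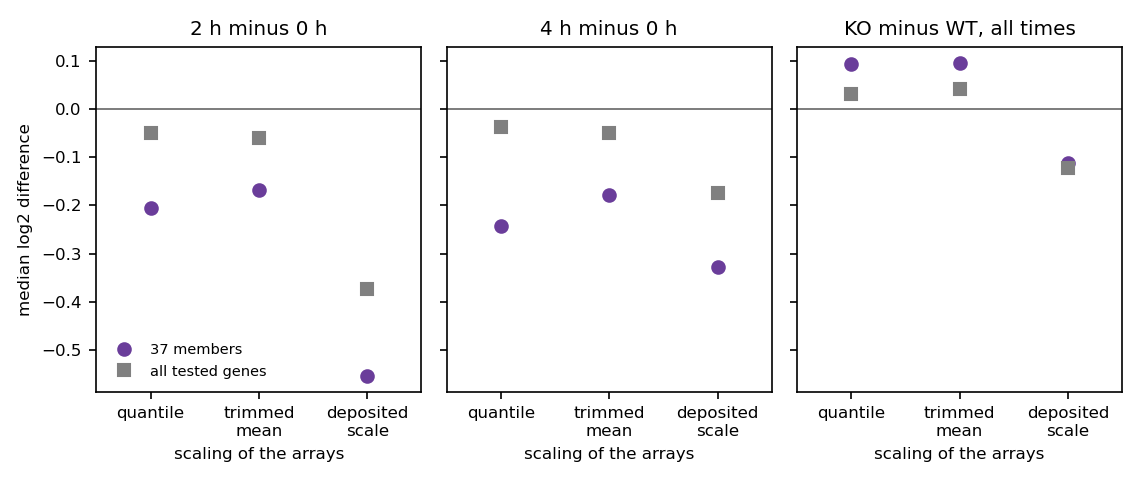
Median log2 difference of the 37 genes (circles) and of all tested genes (squares) under 3 scalings of the arrays, for 2 h and 4 h against 0 h and for KO against WT over all times. The circles lie below the squares for both times under each scaling, while for KO against WT the circle lies at 0.093 with quantile normalisation and at -0.11 on the deposited scale, beside an all-gene median of -0.12.

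Because Tfeb and its relatives bind the E-box CACGTG, the promoters of the 37 genes were searched for it. RefSeq promoter windows (GRCm38.p6, 250 bases before to 50 after the start) matched 32 genes, and not Npc1, Becn1, Atp6v1h, Ctsb or Ctsh. CACGTG, which reads the same on both strands, was present in 14 of 32 genes (43.8%), against 8.09% of 27025 genes in the table and 11.4% of the 10324 tested genes with a window. The longer form TCACGTGA, which contains it, was present in 7 (21.9%), against 1.12% and 2.06%. A still longer form, with G added before TCACGTGA and C after it, was also searched. It was present in 0 of the 32 genes, against 0.370% and 0.746%. With shares this low, 0 of 32 genes does not show that it is rarer among them. Of the 14 genes with CACGTG 7 were called lower at 2 or 4 h, 1 higher and 6 neither, and of the 18 without it in their window 14 were called lower and 4 neither. A match describes these letters alone and is no evidence of binding.

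The stretches shown, 5′ to 3′ on the gene's strand with CACGTG in capitals, are from Lamp1, which fell at both times, from Ctsa, Ctsd and Gla, which fell and were higher in KO, from Ifi30, which fell, and from Atp6v1a, which rose.
Lamp1, chr8:13159080-13159160, plus strand: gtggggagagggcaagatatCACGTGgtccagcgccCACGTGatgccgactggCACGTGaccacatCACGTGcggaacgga
Ctsa, chr2:164833741-164833772, plus strand: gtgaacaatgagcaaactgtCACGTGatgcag
Ctsd, chr7:142387900-142387945, minus strand: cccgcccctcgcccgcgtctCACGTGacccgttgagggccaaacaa
Ifi30, chr8:70766834-70766879, minus strand: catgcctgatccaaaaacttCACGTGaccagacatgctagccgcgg
Gla, chrX:134601174-134601252, minus strand: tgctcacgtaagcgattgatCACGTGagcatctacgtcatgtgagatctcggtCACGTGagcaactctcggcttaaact
Atp6v1a, chr16:44139365-44139410, minus strand: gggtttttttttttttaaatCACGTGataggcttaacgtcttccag
Lamp1 holds the motif 4 times, its first bases at -61, -45, -28 and -15 from the start. Gla holds it 2 times, at -227 and -194. Ctsd holds it 2 times, of which the copy at -98 is shown. Atp6v1a, the gene that rose, carries it at -131 within TCACGTGA, the form also present in Ctsa, Ctsd, Ifi30 and Gla.

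Of the 6 membrane proteins of the lysosome, 5 fell at 2 h and 5 at 4 h (83.3% each), and 0 rose. Among all tested genes 19.4% and 16.7% fell. Lamp1, which lines the inner face of the lysosomal membrane with sugar chains and whose promoter holds 4 copies of the E-box, read 11.90 and 11.87 before treatment, 11.51 and 11.56 after 2 h, 11.60 and 11.50 after 4 h in WT. In KO it read 11.95 and 11.95 before treatment, 11.63 and 11.59 after 2 h, 11.58 and 11.56 after 4 h. No 2 h or 4 h array reached the lowest 0 h array, and Lamp1 fell by 0.35 ± 0.040 (SE, 4 arrays a time) at 2 h (limma, Benjamini-Hochberg adjusted p = 6.76e-06) and by 0.36 at 4 h (adjusted p = 4.57e-06). With trimmed-mean scaling its 2 h fall was 0.17 (adjusted p = 0.04), and on the deposited scale 0.56. Lamp2, its paralogue, which also takes part in chaperone-mediated autophagy, read 9.83 and 9.83 before treatment, 9.70 and 9.60 after 2 h, 9.52 and 9.47 after 4 h in WT and 9.71 and 9.88 before treatment, 9.61 and 9.65 after 2 h, 9.47 and 9.36 after 4 h in KO. The 3 times did not overlap. It fell by 0.17 at 2 h (limma adjusted p = 0.0264) and by 0.36 at 4 h (adjusted p = 0.000123). The 2 h call of Lamp2 was lost without any of 5 arrays (WT 0 h A or B, WT 2 h B, KO 0 h B or KO 2 h A), with adjusted p from 0.053 to 0.113, and under trimmed-mean scaling.

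Laptm5, a membrane protein of blood cells that steers immune receptors to lysosomes, changed most between 2 and 4 h. In WT it read 11.07 and 11.11 before treatment, 10.94 and 10.84 after 2 h, 10.20 and 10.24 after 4 h, and in KO 11.13 and 11.22 before treatment, 10.98 and 10.95 after 2 h, 10.37 and 10.50 after 4 h. The 4 h arrays were all below the 2 h arrays, and these below the 0 h arrays. Laptm5 fell by 0.21 ± 0.048 at 2 h (limma adjusted p = 0.00371) and by 0.80 at 4 h (adjusted p = 3.29e-09), a change of -42.6%. Its probe set has the suffix _x_at, given to probes that may match other sequences. A second bright probe set fell by 0.91 at 4 h, 2 others gave -0.23 and -0.55 without a call, and a dim one at a mean level of 4.76, just above the filter, rose by 0.80 (adjusted p = 0.0205 among probe sets), so the probe sets disagree. At 2 h 2 of the other Laptm5 probe sets above the filter went the opposite way, with 0 called. With trimmed-mean scaling the 2 h difference was -0.096 and not called, and the 2 h calls within WT and within KO were lost too.

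Scarb2, the receptor that carries glucocerebrosidase to lysosomes, read 9.48 and 9.42 before treatment, 9.38 and 9.34 after 2 h, 9.15 and 9.12 after 4 h in WT and 9.66 and 9.75 before treatment, 9.29 and 9.34 after 2 h, 9.23 and 9.33 after 4 h in KO. All 8 later arrays were below all 0 h arrays, and it fell by 0.24 at 2 h and 0.37 at 4 h (limma adjusted p = 0.00248 and 5.16e-05). Npc1, which exports cholesterol from the lysosome, read 7.59 and 7.69 before treatment, 7.15 and 6.95 after 2 h, 7.31 and 7.15 after 4 h in WT and 7.48 and 7.65 before treatment, 7.198 and 7.08 after 2 h, 7.42 and 6.995 after 4 h in KO. It too was lower on all later arrays, by -0.51 at 2 h and -0.38 at 4 h (limma adjusted p = 0.000944 and 0.00809). Mcoln1, a calcium channel of the lysosomal membrane, differed by -0.11 and -0.12 and was called at neither time.

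Among the soluble cofactors, Psap, the precursor of the saposins that help enzymes degrade sphingolipids, read 12.13 and 11.98 before treatment, 11.71 and 11.74 after 2 h, 11.74 and 11.70 after 4 h in WT and 12.28 and 12.21 before treatment, 11.93 and 11.86 after 2 h, 11.84 and 11.74 after 4 h in KO. No later array reached a 0 h array, and Psap fell by 0.34 at 2 h and 0.40 at 4 h (limma adjusted p = 2.89e-05 and 5.83e-06); the 2 h fall was 0.16 with trimmed-mean scaling (adjusted p = 0.0452) and 0.55 on the deposited scale. Npc2, the soluble partner of Npc1, read 13.02 and 12.98 before treatment, 12.96 and 12.97 after 2 h, 12.98 and 12.92 after 4 h in WT and 12.98 and 12.999 before treatment, 12.87 and 12.84 after 2 h, 12.83 and 12.78 after 4 h in KO. WT 4 h A lay within the range of the WT 0 h arrays. Its difference at 4 h, -0.12, passed the test (limma adjusted p = 0.0216) but not without any of 4 arrays (WT 0 h A, WT 4 h B, KO 0 h B or KO 4 h B; 0.0539 to 0.0861), nor on either other scale, and it was 0.012 with trimmed-mean scaling. Grn, the precursor of the granulins, was called at neither time (-0.072 and -0.093).

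The proteases and the thiol reductase are 10 genes together, of which 5 fell at 2 h (50%) and 6 at 4 h (60%), and 0 rose. Among all tested genes 19.4% and 16.7% fell. Ctsd, the main aspartic protease of lysosomes, read 10.20 and 10.06 before treatment, 9.85 and 9.76 after 2 h, 9.66 and 9.70 after 4 h in WT and 10.62 and 10.48 before treatment, 10.11 and 10.16 after 2 h, 9.96 and 9.85 after 4 h in KO. Within each genotype the 3 times did not overlap, and it fell by 0.37 ± 0.054 at 2 h and by 0.55 at 4 h (limma adjusted p = 7.46e-05 and 1.22e-06). Ifi30, which reduces disulphide bonds in antigens, read 12.30 and 12.35 before treatment, 11.92 and 12.01 after 2 h, 11.90 and 11.84 after 4 h in WT and 12.42 and 12.39 before treatment, 12.07 and 11.99 after 2 h, 11.92 and 11.95 after 4 h in KO. All later arrays were below all 0 h arrays, with a fall of 0.37 at 2 h and 0.46 at 4 h (limma adjusted p = 4.13e-06 and 3.4e-07); the 2 h call was missed with trimmed-mean scaling (adjusted p = 0.0564). Ctsa, a carboxypeptidase that also protects beta-galactosidase and neuraminidase, read 8.72 and 8.56 before treatment, 8.31 and 8.29 after 2 h, 8.25 and 8.25 after 4 h in WT and 9.02 and 9.02 before treatment, 8.66 and 8.69 after 2 h, 8.60 and 8.65 after 4 h in KO. Within each genotype every later array was below both 0 h arrays, and Ctsa fell by 0.34 and 0.39 (limma adjusted p = 0.000323 and 8.78e-05); a second, dim probe set read 0.30 at 4 h and was not called.

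Ctsb, a cysteine protease, read 11.51 and 11.31 before treatment, 11.16 and 11.15 after 2 h, 11.31 and 11.27 after 4 h in WT and 11.86 and 11.76 before treatment, 11.54 and 11.56 after 2 h, 11.53 and 11.45 after 4 h in KO. In WT the 4 h arrays lay just under the lower 0 h array, and the fall was 0.26 at 2 h and 0.22 at 4 h (limma adjusted p = 0.000767 and 0.00269). Ctss, the cysteine protease that trims the invariant chain in dendritic cells, read 12.60 and 12.73 before treatment, 12.45 and 12.43 after 2 h, 12.39 and 12.39 after 4 h in WT and 12.59 and 12.54 before treatment, 12.42 and 12.39 after 2 h, 12.36 and 12.35 after 4 h in KO. Later arrays were all below the 0 h arrays, by -0.19 and -0.24 in the mean (limma adjusted p = 0.00154 and 0.000189). With trimmed-mean scaling Ctsb was called at neither time, and Ctss read 0.057 at 2 h and was not called at 4 h. Neither was called at 4 h on the deposited scale.

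Ctsl, a cysteine protease that acts on the invariant chain in thymic epithelium, read 11.60 and 11.37 before treatment, 11.43 and 11.62 after 2 h, 11.46 and 11.32 after 4 h in WT and 11.86 and 12.002 before treatment, 11.77 and 11.84 after 2 h, 11.67 and 11.15 after 4 h in KO. KO 4 h B was the lowest array and the groups overlapped in WT. The 4 h difference of -0.31 (limma adjusted p = 0.017) lost its call without any of 4 arrays (WT 0 h A, WT 4 h B, KO 0 h B or KO 4 h B; 0.0677 to 0.0818) and with trimmed-mean scaling. The aminopeptidases and exopeptidases Ctsc, Ctsh and Ctsz and the asparaginyl endopeptidase Lgmn were called at neither time, with differences from -0.14 (Ctsc, 2 h) to 0.14 (Ctsc, 4 h).

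The glycosidases and acid lipase held the largest falls among the 37 genes. Gusb, beta-glucuronidase, read 10.08 and 9.96 before treatment, 8.91 and 8.78 after 2 h, 9.40 and 9.34 after 4 h in WT and 9.998 and 10.07 before treatment, 9.07 and 8.88 after 2 h, 9.32 and 9.47 after 4 h in KO. Every 2 h array was below every 4 h array, and these below every 0 h array. Gusb fell by 1.12 ± 0.062 at 2 h, or by 53.9% (limma adjusted p = 1.06e-09), and by 0.64 at 4 h (adjusted p = 9.05e-07). Lipa, the acid lipase that frees cholesterol and fatty acids from lipoproteins, read 8.61 and 8.43 before treatment, 7.93 and 7.98 after 2 h, 7.65 and 7.57 after 4 h in WT and 8.89 and 8.78 before treatment, 8.10 and 8.25 after 2 h, 7.59 and 7.66 after 4 h in KO. Its order ran the other way, with every 4 h array below every 2 h array. Lipa fell by 0.61 ± 0.069 at 2 h (limma adjusted p = 4.68e-06) and by 1.06 at 4 h, a change of -52.0% (adjusted p = 9.41e-09), and its 2 other probe sets fell by 1.08 and 0.74 at 4 h.

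Hexa, a subunit of beta-hexosaminidase, read 9.18 and 9.03 before treatment, 8.68 and 8.69 after 2 h, 8.84 and 8.96 after 4 h in WT and 9.46 and 9.41 before treatment, 8.73 and 8.69 after 2 h, 8.98 and 8.92 after 4 h in KO. The 3 times did not overlap, with 2 h lowest, and Hexa fell by 0.57 at 2 h and 0.35 at 4 h (limma adjusted p = 1.52e-06 and 0.000245). Gla, alpha-galactosidase A, read 7.73 and 7.77 before treatment, 7.49 and 7.68 after 2 h, 7.39 and 7.13 after 4 h in WT and 8.08 and 8.08 before treatment, 7.84 and 7.86 after 2 h, 7.74 and 7.70 after 4 h in KO. Within each genotype every 4 h array was below every 2 h array and these below the 0 h arrays. Its fall of 0.43 at 4 h was called (limma adjusted p = 0.00046) and its 2 h difference of -0.20 was not (adjusted p = 0.0609). Gaa, Glb1 and Neu1, which cut glycogen, beta-galactosides and sialic acids, were called at neither time, with differences between -0.24 and 0.044.

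**Figure D3:**
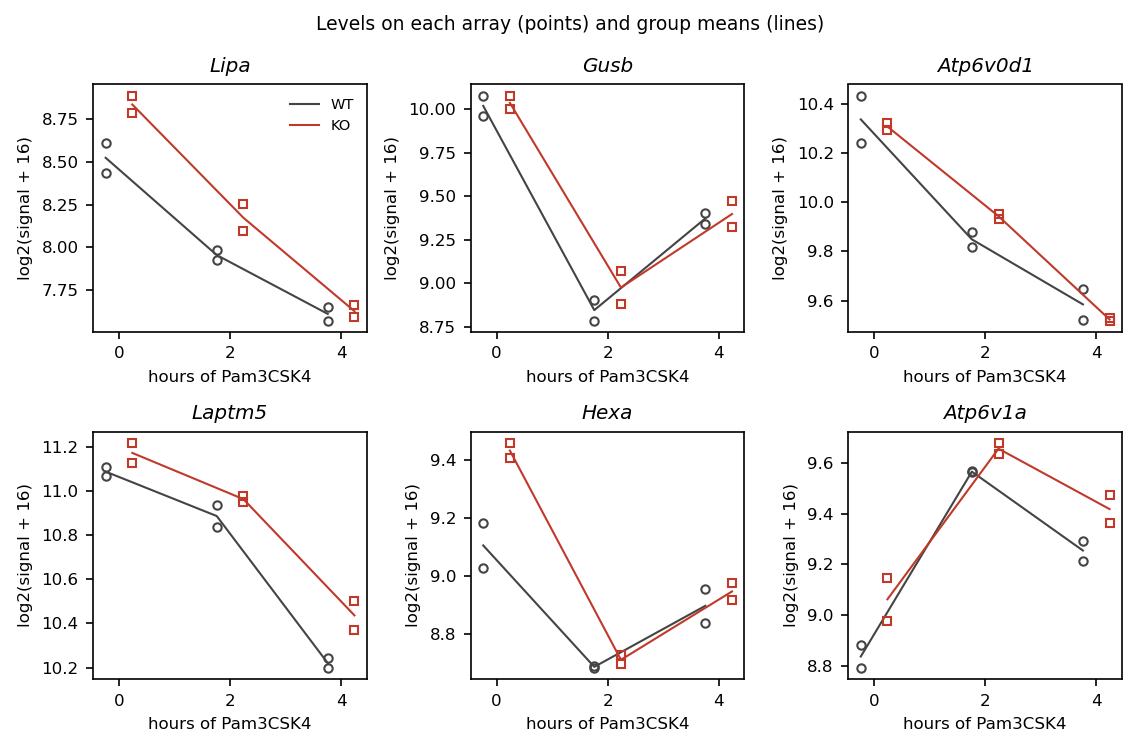
Level in log2(signal + 16) on each array (points) with group means (lines) at 0, 2 and 4 h for 6 genes, WT as grey circles and KO as red squares drawn slightly apart. The vertical axes differ between genes and do not start at 0. Lipa, Atp6v0d1 and Laptm5 were lowest at 4 h, Gusb and Hexa at 2 h, and Atp6v1a was highest at 2 h.

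Of the 4 proton pump genes 2 fell (50%) and 1 rose (25%) at 2 h, and 1 fell and 1 rose at 4 h (25% each). Among all tested genes 19.4% fell and 11.9% rose at 2 h, and 16.7% and 11.8% at 4 h. Atp6v1a, the catalytic subunit of the cytosolic part that splits ATP, was the only one of the 37 genes called higher at 2 or 4 h. It read 8.79 and 8.88 before treatment, 9.57 and 9.56 after 2 h, 9.29 and 9.22 after 4 h in WT and 9.15 and 8.98 before treatment, 9.68 and 9.63 after 2 h, 9.47 and 9.36 after 4 h in KO. Every 2 h array was above every 4 h array, and these above every 0 h array. Atp6v1a rose by 0.66 ± 0.057 at 2 h, or 58.2% (limma adjusted p = 2.35e-07), and by 0.39 at 4 h (adjusted p = 7.95e-05). A second probe set gave 0.68 and 0.60. Its rise was 0.27 and 0.23 on the deposited scale and not called (adjusted p = 0.185 and 0.38).

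Atp6v0d1, which joins the cytosolic part to the membrane part of the pump, read 10.43 and 10.24 before treatment, 9.88 and 9.82 after 2 h, 9.65 and 9.52 after 4 h in WT and 10.29 and 10.32 before treatment, 9.93 and 9.95 after 2 h, 9.53 and 9.52 after 4 h in KO. The 3 times did not overlap and 4 h was lowest. It fell by 0.43 ± 0.054 at 2 h and 0.77 at 4 h, a change of -41.3% (limma adjusted p = 1.71e-05 and 2.46e-08). Atp6ap1, an accessory subunit, read 9.12 and 9.004 before treatment, 8.82 and 8.77 after 2 h, 8.78 and 8.91 after 4 h in WT and 8.96 and 9.15 before treatment, 8.82 and 8.97 after 2 h, 9.01 and 8.89 after 4 h in KO. Its arrays overlapped in KO, and its 2 h difference of -0.22 (limma adjusted p = 0.0198) lost its call without any of 4 arrays (WT 0 h A, WT 2 h B, KO 0 h B or KO 2 h A; 0.0656 to 0.0894). Atp6v1h, a regulatory subunit, differed by 0.021 and -0.043 and was not called.

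Tfeb, the transcription factor that switches on lysosomal and autophagy genes, was measured by 1 dim probe set. It read 5.31 and 4.57 before treatment, 4.44 and 5.25 after 2 h, 5.43 and 4.82 after 4 h in WT and 5.87 and 5.93 before treatment, 4.50 and 5.06 after 2 h, 5.40 and 5.37 after 4 h in KO. WT arrays at 0 and 2 h overlapped, while both KO 2 h arrays lay below both KO 0 h arrays. The mean difference at 2 h was -0.60 ± 0.217 (limma adjusted p = 0.0452) and at 4 h -0.16 (adjusted p = 0.64). The 2 h call was lost without any of 7 arrays (WT 0 h A, WT 2 h A, KO 0 h A or B, KO 2 h A, KO 4 h A or B), with adjusted p from 0.0533 to 0.204, and under trimmed-mean scaling.

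Of the 6 autophagy genes, 1 fell at 2 h (16.7%) and 3 at 4 h (50%), and 0 rose. Among all tested genes 19.4% fell at 2 h and 16.7% at 4 h, so at 2 h the autophagy genes did not exceed that share. Their median difference at 2 h was -0.057, near the -0.050 of all tested genes. Gabarap, which is coupled to lipid on autophagosomes, read 11.58 and 11.46 before treatment, 11.19 and 11.32 after 2 h, 11.22 and 11.36 after 4 h in WT and 11.56 and 11.52 before treatment, 11.25 and 10.92 after 2 h, 11.01 and 11.09 after 4 h in KO. All later arrays were below all 0 h arrays, and it fell by 0.36 at 2 h and 0.36 at 4 h (limma adjusted p = 0.000518 and 0.000507); with trimmed-mean scaling the 2 h fall was 0.22. Map1lc3b, LC3B, the related protein used to mark autophagosomes, read 11.56 and 11.65 before treatment, 11.52 and 11.45 after 2 h, 11.24 and 11.32 after 4 h in WT and 11.38 and 11.50 before treatment, 11.37 and 11.45 after 2 h, 11.14 and 11.27 after 4 h in KO. At 4 h its arrays were all below the 0 h arrays, by -0.28 (limma adjusted p = 0.000396), a call that was missed on both other scales. Ulk1, the kinase that starts autophagy, read 6.61 and 6.54 before treatment, 6.50 and 6.45 after 2 h, 6.02 and 6.28 after 4 h in WT and 6.58 and 6.26 before treatment, 6.44 and 6.68 after 2 h, 6.19 and 6.10 after 4 h in KO.

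Within each genotype the 4 h arrays of Ulk1 were below the 0 h arrays, but a WT array at 4 h was above a KO array at 0 h. Its 4 h difference of -0.35 (limma adjusted p = 0.0235) lost its call without any of 4 arrays (WT 0 h A, WT 4 h A, KO 0 h A or KO 4 h B; 0.07 to 0.113). Atg5 and Atg7, which couple LC3 to lipid, and Becn1, a subunit of the lipid kinase complex of autophagy, were called at neither time, with differences from -0.21 (Atg5, 2 h) to 0.031 (Becn1, 4 h).

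Between 2 and 4 h, 10 of the 37 genes were lower and 4 higher, against 10.9% lower and 11.6% higher among all tested genes. Of the 16 genes lower at both times, 5 were lower still at 4 h than at 2 h (Lamp2, Laptm5, Ctsd, Lipa and Atp6v0d1). Laptm5 fell a further 0.60, Lipa 0.44 and Atp6v0d1 0.34 (limma adjusted p = 3.13e-07, 0.000232 and 0.000275). Gusb and Hexa were higher at 4 h than at 2 h, by 0.47 and 0.22 (adjusted p = 4.73e-05 and 0.0112), but still below 0 h. Ctsc, an aminopeptidase that activates granule proteases, was called against 0 h at neither time, yet stood higher at 4 h than at 2 h by 0.27 (adjusted p = 0.00161). With the mean of all probe sets that Ctsc difference was -0.069 (adjusted p = 0.543), and its 2 h difference from 0 h was 0.23 and called (adjusted p = 0.0295).

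The late differences depended on the scaling and on single arrays. On the deposited scale 3 of the 14 were called (Ctsc, Gusb and Neu1), and 7 of 14 lost their call without at least 1 array, with adjusted p from 0.0501 to 0.218. Hexa lost it without WT 4 h B. Lamp2 lost it without WT 2 h A, WT 4 h B, KO 2 h B or KO 4 h B, Ulk1 without WT 2 h A, WT 4 h A, KO 2 h B or KO 4 h B, and Ctsd without WT 2 h A, KO 2 h A or B, or any 4 h array but A of KO. Ctsl and Gla lost it without 8 of the 12 arrays and Neu1 without 10. The mean of all probe sets left 4 of the 10 lower. Without WT 4 h B the counts were 6 lower and 2 higher, and without KO 2 h B or KO 4 h B 5 were lower.

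The responses were then read within each genotype. In WT 13 of 37 genes fell at 2 h and 14 at 4 h, against 11.5% and 9.9% lower among all tested genes, and in KO 15 and 19 fell, against 11.7% and 10.9%. With trimmed-mean scaling 6 fell in WT at 2 h, and on the deposited scale 4 fell in WT and 7 in KO at 4 h. The shares of all tested genes just given are for quantile normalisation and do not apply to these counts. Atp6v1a was called higher in each of the 4, where 8.43%, 8.31%, 7.85% and 7.24% of all tested genes were higher; on the deposited scale all 4 of these calls were lost (adjusted p from 0.225 to 0.731). At 2 h 12 genes fell in both genotypes, 92.3% of the WT list and 80% of the KO list. At 4 h 14 did, all of the WT list and 73.7% of the KO list. The matching overlap over all tested genes is not given here, so these shares do not show a trait particular to the 37 genes. Without WT 2 h B, 7 genes fell in WT at 2 h. The rise of Atp6v1a in KO at 4 h was not called without KO 0 h B or KO 4 h A, leaving 0.

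The test of the difference itself, the KO response minus the WT response, called 0 of 37 genes at 2 h and 0 at 4 h (limma), against 0% higher and 0.0313% lower at 2 h and 0.0156% higher and 0.0313% lower at 4 h among all tested genes. At an unadjusted p under 0.05 there were 3 at 2 h (Scarb2, Hexa and Tfeb) and 3 at 4 h (Ctsl, Lipa and Hexa), with negative differences. The lowest limma adjusted p among the 37 was 0.731 at 2 h and 0.775 at 4 h. The share of all tested genes at the unadjusted threshold is not given here, and these counts alone do not show a larger response in KO. Hexa fell by 0.72 in KO and 0.42 in WT at 2 h, and the difference of -0.30 had a 95% interval from -0.55 to -0.056 (adjusted p = 0.8). Tfeb fell by 1.12 in KO at 2 h (limma adjusted p = 0.0176) and read -0.091 in WT, where it was not called, while without KO 0 h A, KO 0 h B or KO 2 h A the KO call was lost (adjusted p up to 0.153). The Tfeb difference of -1.03 had an interval from -1.95 to -0.10 (adjusted p = 0.819).

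Averaged over the 3 times, 8 of the 37 genes were higher in KO than in WT and 0 lower, against 6.21% higher and 4.28% lower among all tested genes. At an unadjusted p under 0.05 there were 18 higher and 3 lower. The percentages just given are for adjusted calls and do not apply to these counts. The share of all tested genes at the unadjusted threshold is not given here. The median difference of the 37 genes was 0.093, and 0.031 for all tested genes. Of the 8, 5 were cathepsins (Ctsa, Ctsb, Ctsc, Ctsd and Ctsl), and the others were Gla, Psap and Atp6v1a. This result depends on the scaling: on the deposited scale 0 of the 37 were higher and 1 lower (Gabarap, -0.36, limma adjusted p = 0.0453), and the median of all tested genes was -0.12. The share of all tested genes called on that scale is not given here, so the loss of calls cannot be set against it.

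**Figure D4:**
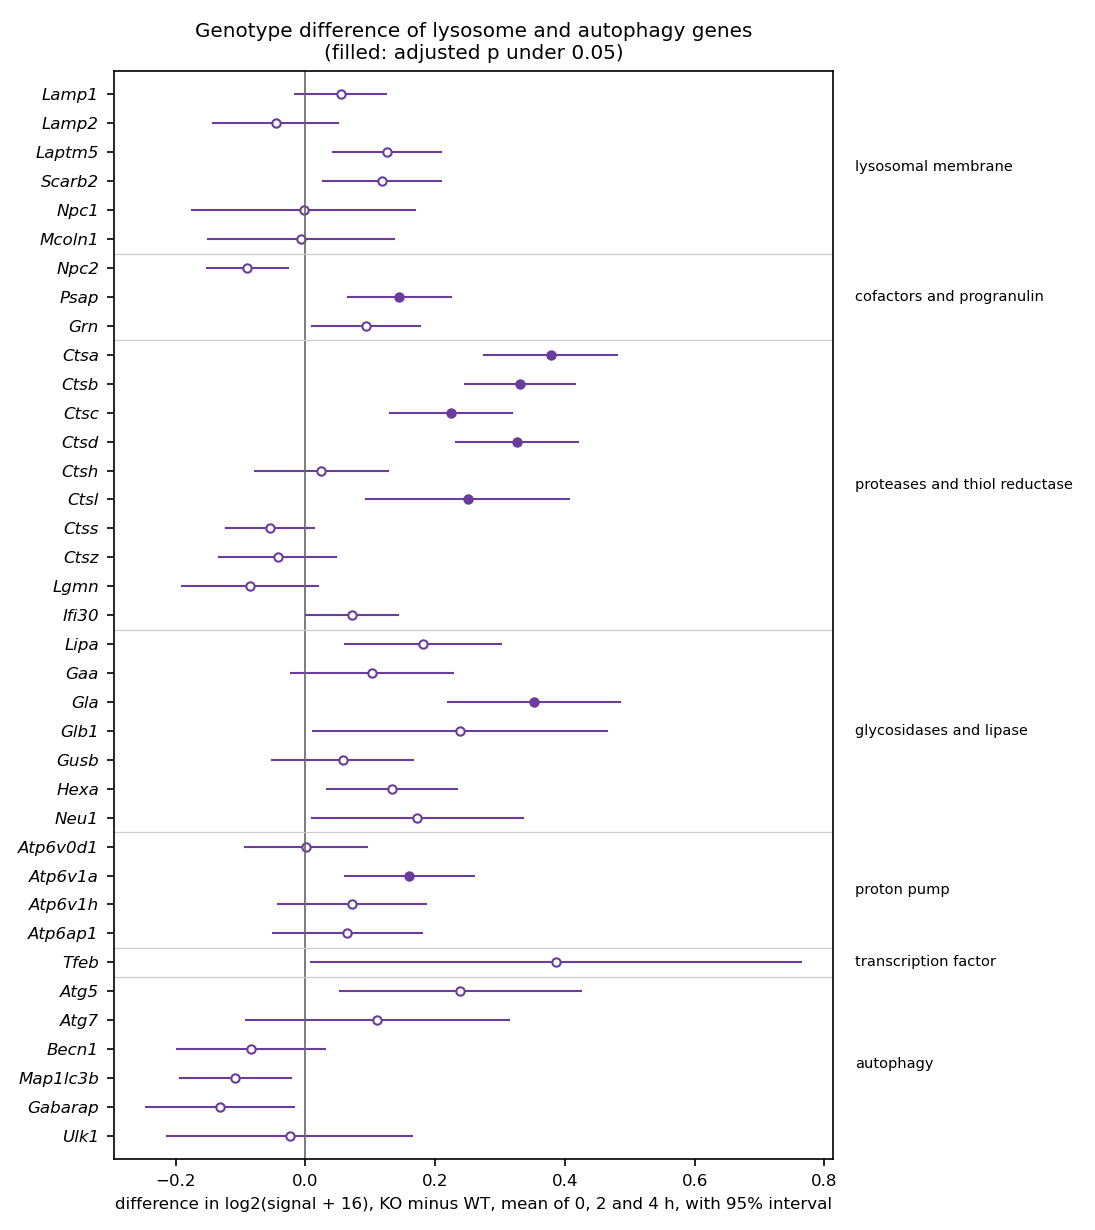
Difference between KO and WT in log2(signal + 16) for each of the 37 genes, averaged over 0, 2 and 4 h, after quantile normalisation. Bars are 95% intervals from the limma fit and filled points have an adjusted p under 0.05. The 8 filled points lie right of 0, from 0.14 (Psap) to 0.38 (Ctsa), and all 8 calls were lost on the deposited scale.

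The largest of these were in Ctsa, Ctsb, Ctsd and Gla, whose array values are given above. For each of the 4, both KO arrays were above both WT arrays at 0, 2 and 4 h. Without overlap in either direction were 24, 22 and 15 of the 37 genes at these times. The share over all tested genes is not given here. The 4 were picked from the same arrays, so this separation adds no support to their calls. Ctsa was higher in KO by 0.38 ± 0.048 (SE, 6 arrays a genotype; limma adjusted p = 7.78e-05), or 29.9%, with 0.38, 0.38 and 0.37 at 0, 2 and 4 h. Ctsb was higher by 0.33 ± 0.040 (adjusted p = 4.63e-05), and 2 of its 4 other probe sets were called higher as well (0.52 and 0.50). Ctsd was higher by 0.33 ± 0.044 and Gla by 0.35 ± 0.062 (adjusted p = 0.000149 and 0.0015). The 4 differences were 0.17, 0.12, 0.11 and 0.18 on the deposited scale, in the same direction and not called (adjusted p = 0.59, 0.631, 0.733 and 0.567).

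Ctsc read 10.34 and 10.34 before treatment, 10.21 and 10.26 after 2 h, 10.59 and 10.45 after 4 h in WT and 10.53 and 10.70 before treatment, 10.41 and 10.49 after 2 h, 10.76 and 10.66 after 4 h in KO. Its KO arrays were above its WT arrays at every time, by 0.22 ± 0.044 in the mean (limma adjusted p = 0.0034). Ctsl was higher by 0.25, Psap by 0.14 and Atp6v1a by 0.16 (adjusted p = 0.0414, 0.0198 and 0.0397). Leaving out 1 array ended the call for Psap in 6 of 12 cases (WT 0 h B, 2 h A, 4 h B and KO 0 h A, 2 h A, 4 h A), for Ctsl in 8 (all but WT 0 h A, 2 h B, 4 h A and KO 4 h B) and for Atp6v1a in 9 (all but WT 0 h B, KO 0 h B and KO 4 h B). The adjusted p then ran from 0.0519 to 0.112, and without WT 2 h A 5 genes were called. A variance model without trend also ended these 3 calls (adjusted p from 0.131 to 0.173), and the mean of all probe sets those of Psap, Ctsc, Ctsl, Gla and Atp6v1a (Gla 0.15 and Atp6v1a -0.00709, adjusted p = 0.283 and 0.956). The deposited scale gave -0.035 for Psap, -0.0029 for Ctsc and -0.055 for Atp6v1a, and the second probe set of Atp6v1a gave -0.17, not called. Ctss, the invariant chain protease, had a difference of -0.055 with a 95% interval from -0.12 to 0.014, and was not called.

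**Figure D5:**
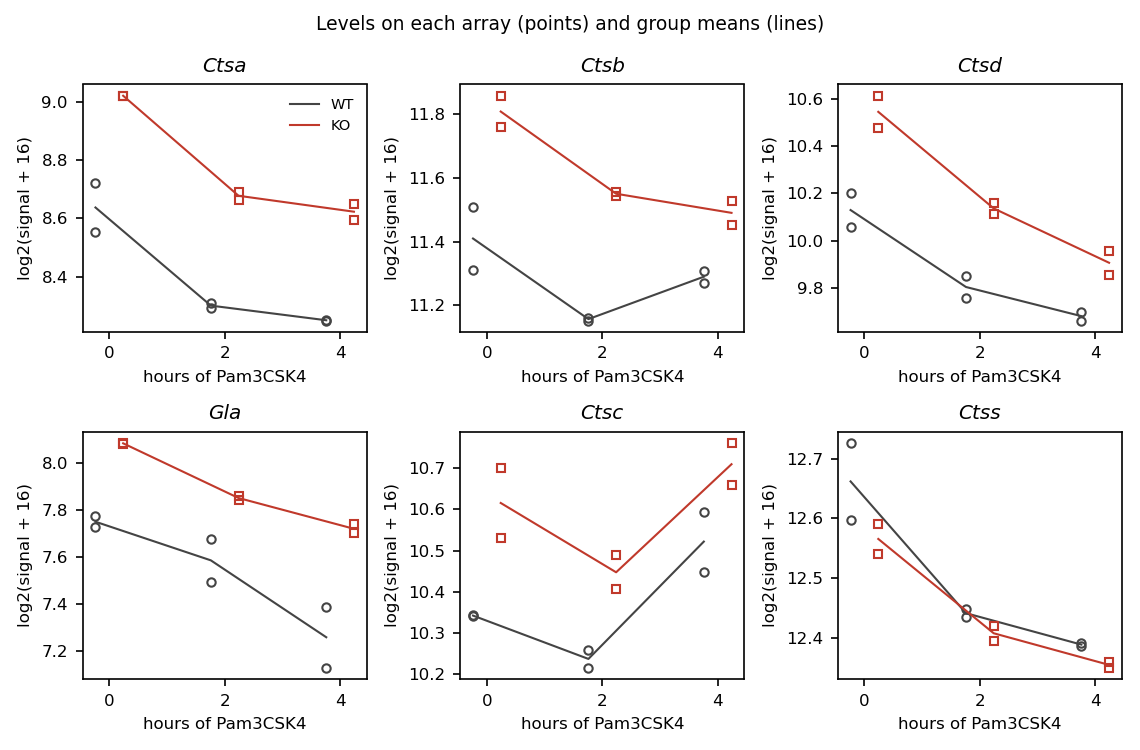
Level in log2(signal + 16) on each array (points) with group means (lines) at 0, 2 and 4 h for 6 proteases and glycosidases, WT as grey circles and KO as red squares drawn slightly apart, after quantile normalisation. The vertical axes differ between genes and do not start at 0. For Ctsa, Ctsb, Ctsd, Gla and Ctsc both KO arrays lie above both WT arrays at each time, and for Ctss, not called, both KO arrays lie below both WT arrays.

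At single times fewer genes were called. At 0 h Ctsa, Ctsb, Ctsd and Hexa were higher in KO (4 of 37, against 1.95% of all tested genes), with Hexa at 0.33 (limma adjusted p = 0.0381). At 2 h Ctsa, Ctsb and Ctsd were higher (3, against 1.01%), and at 4 h Ctsa and Gla (2, against 1.13%). None of the 37 was called lower at any time, against 1.35%, 1.29% and 1.26%. At an unadjusted p under 0.05 there were 12, 11 and 7 higher and 2, 1 and 2 lower at 0, 2 and 4 h. These percentages are for adjusted calls and do not apply to the unadjusted counts. All 9 calls were lost on the deposited scale and with a variance model without trend. Each was lost without at least 1 array, with adjusted p from 0.0504 to 0.341, and 0 were left at 0 h without WT 0 h B or KO 0 h A, at 2 h without WT 2 h B or KO 2 h B, and at 4 h without WT 4 h B, KO 4 h A or KO 4 h B. Leaving out KO 0 h B left 2 at 0 h, WT 2 h A or KO 2 h A left 1 at 2 h, and WT 4 h A left 1 at 4 h.

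Most markers of macrophages and monocytes, though not all, also fell with time and were higher in KO. Of these markers 10 were read, and all 10 lay above the filter. Their summed signal ran from 2465 to 2526 in WT at 0 h, 1875 to 1991 at 2 h and 1567 to 1740 at 4 h, and from 4350 to 4456, 3183 to 3293 and 2932 to 3065 in KO. Every KO array was above every WT array. The lysozyme gene Lyz2 was the brightest of the 10 markers on every array (10.10 on WT 0 h A, where Csf1r came next with 8.86). It weighs most in these sums, which do not measure macrophage content. In the mean of both genotypes 6 of 10 fell and 1 rose at 2 h, and 7 fell and 1 rose at 4 h. Over all times 8 of 10 were higher in KO and 0 lower, against 6.21% higher and 4.28% lower among all tested genes. On the deposited scale 6 of 10 were higher, where 0 of the 37 genes were. With quantile normalisation Lyz2 was higher by 0.95 and the complement genes C1qb and C1qa by 0.66 and 0.75. Their part in the results on lysosome and autophagy genes was not tested.

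Markers of other cell types were read the same way. Their counts stand beside 19.4% lower and 11.9% higher among all tested genes at 2 h, and 16.7% and 11.8% at 4 h. For KO against WT the shares were 6.21% higher and 4.28% lower. These shares do not apply to counts on the deposited scale. With lists this short, counts of 1 are not read as results. T cell markers summed to 2908 to 3230 at 0 h, 1793 to 1882 at 2 h and 2054 to 2192 at 4 h in WT, and to 2614 to 2775, 1606 to 1642 and 1863 to 1933 in KO, with Cd4 below the filter (8 of 10 matched). At 2 h 1 of 7 tested was lower (the cytokine receptor gene Il7r, with -1.23) and 1 higher, and at 4 h 3 were lower and 0 higher. Il7r was the brightest T cell marker on every array (11.07 on WT 0 h A, where Cd3d came next with 8.50). The T cell sums therefore mainly follow Il7r and do not measure T cell content. The median difference of the 7 tested T cell markers was -0.16 at 2 h. Of 6 stroma and endothelium markers 0 changed at 2 h and 3 fell at 4 h, and 3 were higher in KO over all times, 0 of them on the deposited scale. Of 6 plasmacytoid dendritic cell markers 0 changed at 2 h, 3 fell and 1 rose at 4 h, and 1 was higher and 2 lower in KO. Of the 11 dendritic cell markers 4 rose and 2 fell at 2 h, 3 rose and 1 fell at 4 h, and 4 were higher and 1 lower in KO; on the deposited scale 0 rose and 3 fell at 2 h, 1 rose and 0 fell at 4 h, and 0 were higher and 1 lower in KO. B cell markers (7 of 8 matched, Pax5 below the filter) summed to 358 to 625, and neutrophil markers (7 of 8, Camp below the filter) to 200 to 482 over the 12 arrays. NK cell and plasmacytoid dendritic cell markers summed to 844 to 1178 and 7263 to 8648. The part of these cell types in the results was not tested either.

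Other genes of the same pathways were read from a list of 104, of which 96 were on the array and 94 were tested. In the mean of both genotypes 33 of 94 fell and 13 rose at 2 h, and 33 fell and 7 rose at 4 h, that is 35.1% lower and 13.8% higher at 2 h and 35.1% and 7.45% at 4 h, where all tested genes gave 19.4% and 11.9%, and 16.7% and 11.8%. Without normalisation 59 fell and 1 rose at 2 h, and 25 fell and 2 rose at 4 h. The shares just given are for quantile normalisation and do not apply to these counts. Those on the deposited scale are given above with the scaling of the arrays. The other hydrolases and cofactors gave 13 of 25 lower and 0 higher at 2 h and 13 lower and 2 higher at 4 h. Other membrane and sorting genes gave 7 of 17 lower and 2 higher at 2 h, and 7 and 1 at 4 h. Other pump subunits gave 6 of 12 lower and 2 higher at 2 h, and 2 and 1 at 4 h. Other autophagy genes gave 4 of 27 lower and 4 higher at 2 h (14.8% each), and 7 and 2 at 4 h. Tfeb's relatives and the regulators of the growth kinase complex mTORC1 gave 3 of 13 lower and 5 higher at 2 h, and 4 and 1 at 4 h.

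Among the falls with the smallest p at 2 h were Galc, which degrades galactosylceramide, by 1.51, Gnptab, which makes the mannose 6-phosphate tag that sorts hydrolases to lysosomes, by 0.79, Laptm4b, a membrane protein, by 0.63, and Asah1, acid ceramidase, by 0.40 (limma adjusted p = 1.02e-07, 3.73e-08, 1.46e-07 and 3.28e-05). At 4 h they were Galc by 1.24, Uvrag, a partner of Becn1, by 0.96, and Laptm4b and Gnptab by 0.78 each. The rises at 2 h were led by Sqstm1, the autophagy receptor p62, with 0.55 (limma adjusted p = 4.12e-06), the membrane protein gene Cln3 with 0.68, the pump subunit Atp6v0a1 with 0.66 and the GTPase gene Rragc with 0.37. At 4 h Atp6v0a1 stood 1.05 above 0 h, Acp5, an acid phosphatase, 0.64, Cln3 0.42 and Sqstm1 0.28. On the deposited scale Sqstm1 at 2 h and Atp6v0a1 and Acp5 at 4 h kept their calls and the other rises named here did not.

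Over all times 11 of the 94 genes were higher in KO (11.7%) and 2 lower (2.13%), where all tested genes gave 6.21% and 4.28%. On the deposited scale 0 of the 94 were higher and 2 lower, and the shares just given do not apply there. The highest by p were Cd68, a macrophage lysosomal membrane protein (0.43), Rptor, a subunit of mTORC1 (0.33), Arsb (0.34) and Ppt1 (0.31), both hydrolases, and none kept its call on the deposited scale. Flcn, a regulator of the Rag GTPases and of Tfeb's relatives, was lower in KO by 0.56 (limma adjusted p = 7.43e-05) and Gnptab by 0.22 (adjusted p = 0.00687); Flcn kept its call on the deposited scale and Gnptab did not (adjusted p = 0.0769).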

How the data were processed

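RNA from 12 samples was measured on Affymetrix mouse arrays with 45101 probe sets. The deposited values are linear intensity signals, 1 per probe set and array, made with MAS5 per the submitters' processing notes; its version, scaling target and detection calls are not given in the sources used here. Array by array, the deposited intensity values share no common scale between arrays.

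The genes and lists were chosen with earlier results of these data known. Of the probe sets 34958 carried 1 gene symbol, 932 several and 9211 none in the platform's annotation. Arrays were quantile normalised and the deposited signals turned into log2(signal + 16). Genes whose brightest probe set averaged under the 40th percentile of probe sets (4.73) were left out of tests. limma 3.58.1 in R 4.3.3 fitted the 6 group means (lmFit, eBayes with trend, 6 residual degrees of freedom), and p-values were adjusted (Benjamini-Hochberg) over 12792 genes within each of 13 comparisons, with 0.05 as threshold. The code was tested on simulated data.

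Array values are given for genes called in a mean response or the mean KO difference and for Tfeb; other pathway genes are the 4 smallest p-values each way. Alternatives changed scaling, pseudocount, filter, probe set choice, variance model, samples in the fit, threshold, a block for the replicate letter, and left out each array. Arrays of different groups with the same letter deviated together little or not at all. Over 15 pairs of groups the correlation of deviations after normalisation ran from -0.0422 to 0.105, and 1 exceeded 0.1. That does not show what the letters stand for.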

Additional observations from a re-analysis of the deposited data

How the results depend on the processing

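Values are numbers of the 37 genes called. On the deposited scale 0 were called higher in WT or KO at 2 or 4 h, in either mean response, and in KO over WT at 0, 2 or 4 h or over all times, while 4 were lower in WT at 4 h, 7 in KO at 4 h, 29 in the mean at 2 h, 0 at 4 h against 2 h, and 1 in KO over WT. Trimmed-mean scaling gave 6 lower in WT at 2 h and 2 higher in each mean response. At an adjusted p under 0.1 there were 2 higher in the mean at 4 h, and in KO 7 higher at 0 h and 1 lower over all times. The mean of all probe sets gave 2 higher in the mean at 2 h, 4 lower at 4 h against 2 h, and in KO over WT 0 higher at 4 h and 5 higher and 2 lower over all times. Without _x_at and _s_at probe sets 2 were higher at 4 h in KO and in the mean. eBayes without trend gave 5 lower at 4 h against 2 h, and in KO over WT 0 higher at each time and 5 over all times. KO over WT at 4 h gave 1 higher with no filter and 0 with only the groups compared. With the replicate block, or the 60th percentile as filter, 1 gene was lower in KO over all times; the block also ended the 2 h call of Tfeb (adjusted p = 0.054) and changed no other count by over 1.5 times. Leaving out 1 array gave 7 to 14 lower in WT at 2 h, 0 to 1 higher in KO at 4 h, 1 to 2 higher in the mean at 4 h, 2 to 4 higher and 5 to 10 lower at 4 h against 2 h, and in KO over WT 0 to 4, 0 to 3 and 0 to 2 higher at 0, 2 and 4 h, and 5 to 8 higher and 0 to 1 lower over all times. The causes were not tested.

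Of the 37 genes, called or not, 3 lay above 0 in the mean at 2 h and 10 did with trimmed-mean scaling, and 26 lay above 0 in KO over WT over all times and 8 did on the deposited scale. Among differences called under 1 or both settings, these turned sign. With trimmed-mean scaling, Ctss read 0.028 in WT and 0.057 in the mean at 2 h, Ctsz 0.22 in the mean at 2 h, and Npc2 0.012 in the mean at 4 h. Without _x_at and _s_at probe sets, Laptm5 read 0.087 and 0.81 in WT, 0.47 and 0.80 in KO, and 0.28 and 0.80 in the mean at 2 and 4 h, and 0.53 at 4 h against 2 h, and Gaa 0.44 in KO at 4 h. With the mean of all probe sets, Ctsc read 0.23 in the mean at 2 h and -0.069 at 4 h against 2 h, and Atp6v1a -0.00709 in KO over WT. On the deposited scale, at 4 h against 2 h, Lamp2 read 0.045, Ctsd 0.046, Gla 0.019 and Map1lc3b 0.00050, and in KO over WT Psap read -0.035, Ctsc -0.0029 and Atp6v1a -0.055.

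With 2 arrays a group, the number of arrays limits the precision, and a gene missed by the test is not shown to be unchanged. The difference between the KO and WT responses was called for 0 of 37 genes by limma under every alternative run.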
